A study of Mus musculus with 12 samples.

Results

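A set of 10 genes of class I antigen presentation was followed across 12 mouse RNA sequencing libraries, out of the 56748 genes of the deposited table. They comprise the class I heavy chains H2-D1, H2-K1, H2-T10 and H2-T23, the peptide transporter subunits Tap1 and Tap2, the loading chaperone Tapbp, the immunoproteasome subunits Psmb8 and Psmb9, and the light chain B2m. All 10 were found by gene symbol, 1 row each. The 9 genes other than B2m lie in the MHC region of chromosome 17, and B2m lies on chromosome 2. The list was selected on earlier results of these data, in which H2-T10 stood among the largest differences between KO and Het rods. Differences of these genes between KO and Het libraries are therefore given below as a description, with no p-values and with counts of calls only beside those over all genes. Which values led to the choice of the other 9 genes is not recorded, and the p-values for rods against retina are independent of the choice only as far as that contrast played no part in it.

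Retinas came from mice 2 weeks old that carried RiboTag, an allele that puts an HA tag on the ribosomal protein Rpl22 after Cre recombination, and a rod Cre driven by a rhodopsin promoter. Control mice (Het) had 1 floxed and 1 intact Shp2 allele (Shp2fl/+) and KO mice had 2 floxed alleles (Shp2fl/fl), so that Cre and tagged ribosomes were present in both genotypes and the controls had lost 1 allele in rods. Control titles read wt although their genotype is listed as heterozygous. RNA bound to tagged ribosomes (rod TRAP, called rods here) and RNA of the whole retinal lysate (retina) were sequenced, with 3 libraries for each genotype in each fraction. The libraries are said to be from littermates, but neither the strain background nor which library came from which mouse is stated in the sources used here, so that p-values measure the spread between these libraries.

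Deposited values are read counts that had been multiplied by about 1 factor per library and rounded. Estimated depth ran from 9990000 to 19220000 reads per retina library and from 11900000 to 25300000 per rod library, and 3 reads, the limit that a count of 0 allows, are at most 3e-05% of a library (counting error only). The 10 rod markers were all higher in rods than in retina in both genotypes, and 8 of 8 Müller glia markers and 9 of 9 endothelial markers tested were lower in both. Over all genes tested, 21.6% were called higher and 36.8% lower in Het, and 25.8% and 36.4% in KO. Ptpn11, which encodes Shp2, read 2511, 2439 and 2431 in Het rods against 1735, 2139 and 1971 in KO rods. All KO rod values were below all Het rod values, as in 3539 of 13055 genes tested. Its retina values of 2390, 2512 and 2125 (Het) overlapped those of 2205, 2147 and 2466 (KO). Reads from outside the floxed part of the gene would still be counted.

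Class I molecules show peptides from inside the cell to cytotoxic T cells. The proteasome, in its immune form with Psmb8 and Psmb9, cuts proteins into peptides. Tap1 and Tap2 form the transporter that carries peptides into the endoplasmic reticulum, where Tapbp (tapasin) helps load them on a heavy chain bound to B2m (beta-2 microglobulin). H2-K1 and H2-D1 are the classical heavy chains, H2-T23 is the nonclassical chain Qa-1, and H2-T10 is annotated as a polymorphic pseudogene. Interferons raise most of these genes, and neurons are known for low class I levels in the undisturbed nervous system.

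Because H2-D1 and H2-K1 behaved differently below, the 250 bases before the start of each are shown, together with B2m and the stretch that Tap1 shares with Psmb9. Sequences are those of RefSeq on GRCm38.p6, read 5′ to 3′ on the strand of the gene, and 8 of the 10 genes had a window. Capitals mark matches to GAAANNGAA (interferon-stimulated response element), TTCNNNGAA (gamma-activated site), GGGATTCCC or GGACTTTCC (kappa B), searched on both strands.
H2-D1, chr17:35262844-35263093, + strand: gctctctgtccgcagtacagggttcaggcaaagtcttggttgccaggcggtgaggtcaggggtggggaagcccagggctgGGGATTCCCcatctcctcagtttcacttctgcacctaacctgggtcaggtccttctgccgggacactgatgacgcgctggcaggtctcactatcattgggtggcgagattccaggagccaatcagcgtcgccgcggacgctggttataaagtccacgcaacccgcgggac
H2-K1, chr17:34000348-34000597, - strand: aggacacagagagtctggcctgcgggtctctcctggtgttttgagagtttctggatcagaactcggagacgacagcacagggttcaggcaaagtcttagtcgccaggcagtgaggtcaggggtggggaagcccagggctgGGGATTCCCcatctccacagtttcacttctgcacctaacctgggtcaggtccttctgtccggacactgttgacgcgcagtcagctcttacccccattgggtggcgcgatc
B2m, chr2:122147437-122147686, + strand: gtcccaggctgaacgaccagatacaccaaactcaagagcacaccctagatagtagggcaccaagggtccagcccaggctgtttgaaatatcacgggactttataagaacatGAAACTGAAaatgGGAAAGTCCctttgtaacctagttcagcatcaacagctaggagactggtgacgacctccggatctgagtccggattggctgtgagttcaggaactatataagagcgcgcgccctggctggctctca
Tap1, chr17:34187306-34187555, + strand: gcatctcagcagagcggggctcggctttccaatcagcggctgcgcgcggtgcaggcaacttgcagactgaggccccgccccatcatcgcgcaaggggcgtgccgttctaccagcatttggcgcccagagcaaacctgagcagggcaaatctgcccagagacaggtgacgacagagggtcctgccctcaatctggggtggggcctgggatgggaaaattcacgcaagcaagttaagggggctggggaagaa
Over 190 aligned bases the H2-D1 and H2-K1 windows were identical at 170 (89.5%), and both held GGGATTCCC, which 0.301% of 32851 promoter windows hold. It starts 170 bases before the annotated start of H2-D1 and 110 before that of H2-K1. The B2m window held an interferon-stimulated response element 139 bases and GGACTTTCC, on the other strand, 126 bases before its start, with shares over all windows of 7.13% and 0.283%. H2-T23 also held the interferon-stimulated response element and Psmb8 the gamma-activated site, which 7.02% of all windows hold. The core TGACG, left in lower case, was found in 5 of the 8 windows (H2-D1, H2-K1, Tap1, Psmb9 and B2m) and in 17.8% of all windows. Tap1 and Psmb9 hold it as the same site in the stretch they share, and H2-D1 and H2-K1 are alike, so these windows are not independent. Psmb9 runs head to head with Tap1, and their annotated starts lie 226 bases apart. The windows describe letters only and say nothing of binding. Elements that depart from the letters searched were not looked for, so a window without a match, such as H2-D1 or H2-K1 for GAAANNGAA, is not shown to lack such an element.

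Tapbp was higher on rod ribosomes than in whole retina in both genotypes and H2-D1 was called higher in KO, whereas B2m, Tap1, Tap2 and H2-K1 were lower in both and Psmb8 and Psmb9 were near 0 in rods. In Het libraries, 4 of the 7 members tested were lower in rods (36.8% of all genes tested were) and 1 was higher (21.6% of all genes tested). In KO libraries, 5 of 9 were lower (36.4% of all genes tested) and 2 were higher (25.8% of all genes tested). Tap1, Tap2, Psmb8 and B2m passed the filter on low values largely through retina. Neither these counts nor the p-values of those genes given below are therefore support by themselves. Rod and retina values without overlap, reported for single genes below, were common over all genes tested. Every rod value lay below every retina value in 7283 of 16110 genes in Het and 7520 of 16121 in KO. Every rod value lay above in 3137 and 3236. In bulk libraries fewer cells of a type and less RNA per cell cannot be told apart. The plot of values by library shows all 10 genes.

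**Figure D1:**
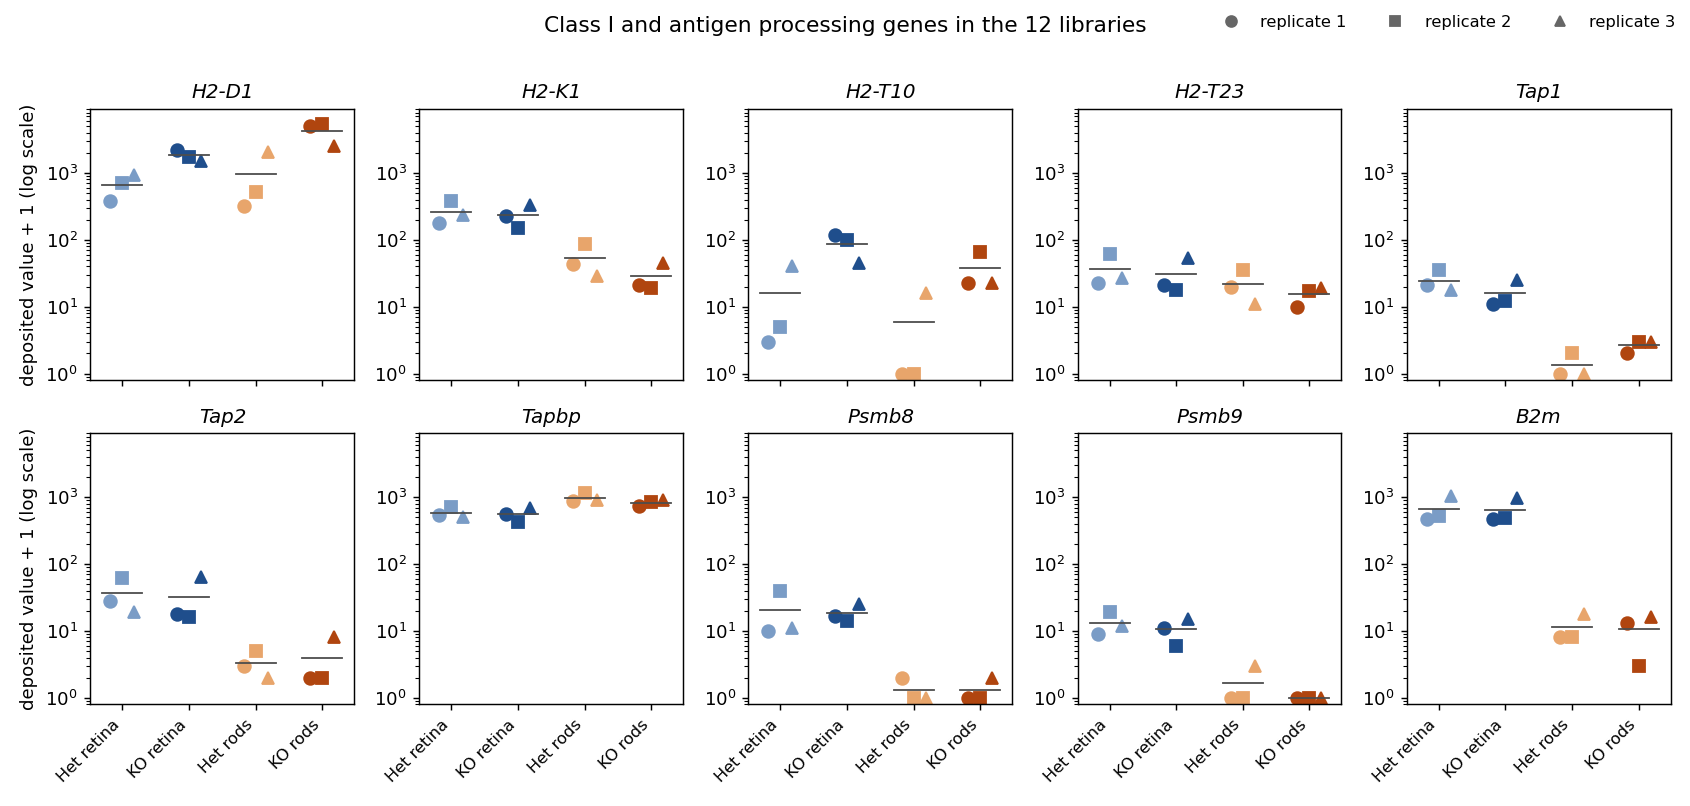
Deposited value plus 1 (log axis) of the 10 genes in each of the 12 libraries, with the marker shape giving the replicate number and the line the group mean. B2m falls from 476 to 1031 in retina to 2 to 17 in rods, whereas H2-D1 and H2-T10 are higher in every KO library than in every Het library of the same fraction.

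B2m, the light chain that every class I heavy chain needs to fold, had values of 477, 519 and 1031 in Het retina and 7, 7 and 17 in Het rods. In KO it had values of 476, 490 and 973 in retina and 12, 2 and 15 in rods. All rod values were far below all retina values, and replicate 3 was the highest retina library in both genotypes. The log2 fold change of B2m in rods was -5.56 in Het (standard error 0.40, limma adjusted p = 6e-06) and -5.63 in KO (standard error 0.56, limma adjusted p = 3.3e-05). Its rod values alone would not have passed the filter, so these p-values are no support by themselves. From summed reads, estimated as value over library factor, retina held 2052 and rods 31 reads in Het, a ratio of 78.0 (exact 95% interval 54.8 to 115, counting error only). In KO the ratio was 87.5 (59.1 to 135) from 2060 and 25 reads.

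The transporter followed the same direction. Tap1 had values of 20, 34 and 17 in Het retina and 0, 1 and 0 in Het rods, and of 10, 11 and 24 in KO retina and 1, 2 and 2 in KO rods. Tap2 had 27, 61 and 18 in Het retina and 2, 4 and 1 in Het rods, and KO libraries held 17, 15 and 62 in retina and 1, 1 and 7 in rods. Neither gene overlapped between rods and retina in either genotype. The log2 fold change of Tap1 was -3.31 in Het (standard error 0.37, limma adjusted p = 6.7e-05) and -1.89 in KO (standard error 0.40, limma adjusted p = 0.0028). For Tap2 it was -2.82 in Het (standard error 0.48, limma adjusted p = 0.00089) and -2.41 in KO (standard error 0.64, limma adjusted p = 0.0092). Both genes passed the filter only through retina, so these p-values are no support by themselves. With so few reads in rods the fitted sizes depend on the pseudocount, and the ratio of summed reads for Tap1 was 41.8 in Het (11.2 to 352) and 10.4 in KO (4.17 to 33.5).

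The immunoproteasome subunits were at the limit of detection in rods. Psmb8 had values of 9, 39 and 10 in Het retina and 1, 0 and 0 in Het rods, and of 16, 13 and 24 in KO retina and 0, 0 and 1 in KO rods. Psmb9 had 8, 18 and 11 in Het retina and 0, 0 and 2 in Het rods, and KO libraries held 10, 5 and 14 in retina and 0 in all 3 rod libraries. Every rod value was below every retina value for both genes. Psmb8 was tested in KO only, where its log2 fold change was -2.89 (standard error 0.38, limma adjusted p = 0.00016). It passed the filter there only through retina, so this p-value is no support by itself. With pseudocounts of 0.5 and 8 the log2 fold change was -4.4 and -1.48. By summed reads, retina held 66.0 times as much Psmb8 in Het (11.4 to 2650, from 56 and 1 reads). For Psmb9 the ratio was 21.8 in Het (5.62 to 187), and KO retina was at least 11-fold higher than KO rods, set against 3 reads over the group.

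Tapbp, the chaperone that holds the heavy chain near the transporter, went the other way. It had values of 532, 722 and 513 in Het retina and 874, 1143 and 901 in Het rods, and of 553, 428 and 692 in KO retina and 744, 835 and 915 in KO rods. All rod values were above all retina values. Tapbp rose in rods, with log2 fold changes of 0.98 in Het (standard error 0.18, limma adjusted p = 0.0015) and 0.97 in KO (standard error 0.19, limma adjusted p = 0.0018). Scaled by library size only, which lowers the median of all genes to -0.51 in Het and -0.55 in KO, its log2 fold change in KO was 0.43 and did not pass the test.

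The heavy chains did not share a direction. H2-K1 had values of 175, 383 and 233 in Het retina and 42, 86 and 28 in Het rods, and of 225, 147 and 332 in KO retina and 20, 18 and 44 in KO rods. Every rod value was below every retina value, and the log2 fold change was -2.12 in Het (standard error 0.43, limma adjusted p = 0.0025) and -2.68 in KO (standard error 0.40, limma adjusted p = 0.00038). H2-T23 had values of 22, 60 and 26 in Het retina and 19, 34 and 10 in Het rods, and of 20, 17 and 52 in KO retina and 9, 16 and 18 in KO rods. Its rod and retina values overlapped, and its log2 fold change was -0.50 in each genotype (standard errors 0.50 and 0.46, limma adjusted p = 0.41 and 0.36).

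H2-D1 had values of 382, 698 and 916 in Het retina and 323, 519 and 2030 in Het rods, and of 2224, 1742 and 1527 in KO retina and 5027, 5301 and 2564 in KO rods. Its Het rods straddled Het retina, with replicate 3 above and replicate 1 below every retina library. KO rods all lay above KO retina. The log2 fold change was 0.41 in Het (standard error 0.69, limma adjusted p = 0.63) and turned to -0.34 without Het rods replicate 3. In KO it was 1.55 (standard error 0.26, limma adjusted p = 0.0008) and ran from 1.40 to 1.91 with 1 library left out. H2-T10 was tested in KO only, where rods were lower by 0.92 without passing the test (log2 fold change -0.92, standard error 0.48, limma adjusted p = 0.12), and it passed without KO rods replicate 2 (-1.39, limma adjusted p = 0.022), without KO retina replicate 3 (-1.32, limma adjusted p = 0.03) and with scaling by library size only (-1.43, limma adjusted p = 0.025). The KO libraries in these tests are those in which H2-T10 was noticed.

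**Figure D2:**
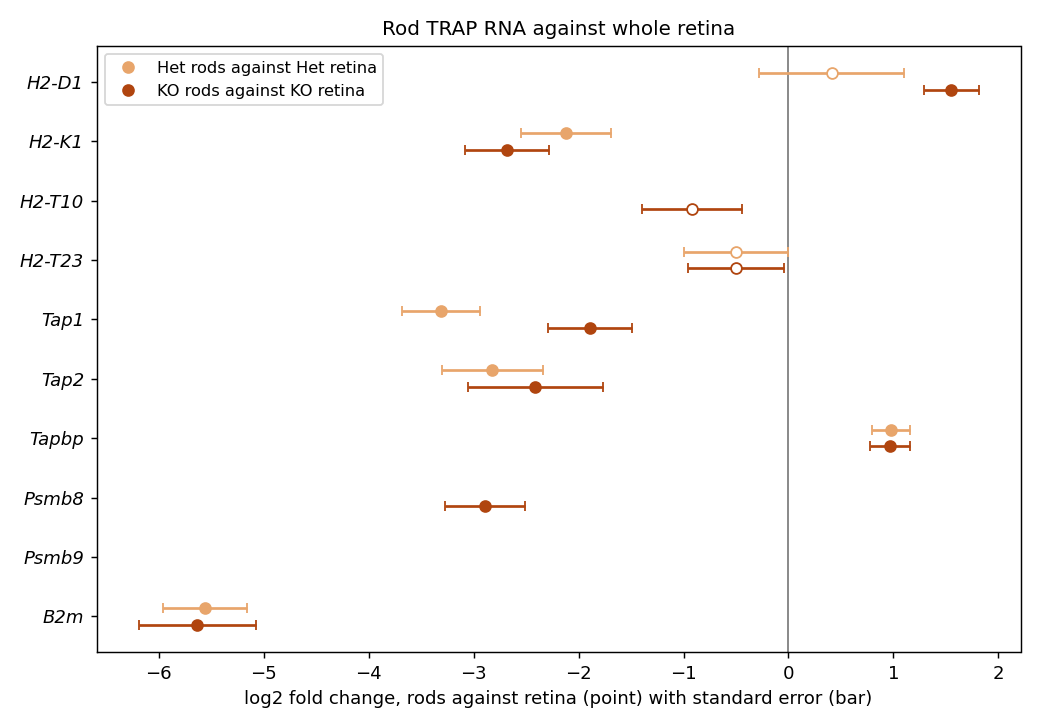
Log2 fold change of rods against retina for each gene (point) with its standard error (bar), in Het and in KO libraries, where filled points passed the test and genes under the filter have no point. B2m lies lowest, at -5.56 and -5.63, and Tapbp is the gene called higher in both genotypes.

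Levels per kilobase of the longest coding transcript, on 1 scale for all 12 libraries, place the genes beside each other. In Het retina B2m led with 687 ± 325 per kb (SD, n = 3), above H2-D1 at 277 ± 115, Tapbp at 177 ± 34.0 and H2-K1 at 142 ± 57.6, and the last 3 overlapped in that order. In Het rods H2-D1 had 531 ± 519 per kb and Tapbp 391 ± 57.9, which overlapped, while H2-K1 had 37.4 ± 21.6 and B2m 14 ± 7.85. In KO rods H2-D1 had 2370 ± 826 per kb, clear of Tapbp at 333 ± 32.8, H2-T10 at 28.3 ± 18.9, H2-K1 at 19.6 ± 10.4 and B2m at 13.1 ± 9.28. B2m was below H2-D1 in rods and above it in Het retina, and in KO retina both overlapped at 671 ± 319 and 767 ± 125. The order in retina depended on the length used: per kb of mean transcript length H2-D1 had 643 beside 687 for B2m in Het retina and 1780 beside 671 in KO retina. H2-T23 lay between 11.3 and 21.3 per kb in all 4 groups, and Tap1, Tap2, Psmb8 and Psmb9 were between 0 and 1.01 per kb in rods.

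Other genes of the pathway also took both directions. Of 14 other loading and trimming genes tested, 10 rose and 1 fell in rods in each genotype. Over all genes tested, 21.6% were called higher and 36.8% lower in Het, and 25.8% and 36.4% in KO. The chaperones Calr and Hspa5 had log2 fold changes of 1.17 and 1.12 in Het (standard errors 0.11 and 0.14), and the tapasin-related Tapbpl had -2.58 (standard error 0.37). Of 8 other proteasome genes, 4 rose and 2 fell in Het rods, and 3 rose and 2 fell in KO rods, beside the same shares over all genes. Psme1, a subunit of the proteasome activator PA28, had 356, 384 and 451 in Het retina and 7, 10 and 19 in Het rods. It fell by 4.69 on the log2 scale (standard error 0.33, limma adjusted p = 5e-06). Like B2m, it passed the filter largely through retina, so this p-value is no support by itself. Psmb10, the third immunoproteasome subunit, fell by 1.64 in Het (standard error 0.40), but in KO its log2 fold change was -0.36 (standard error 0.40, limma adjusted p = 0.46), while Psmb7 and Psmb6, subunits of the standard proteasome, rose by 0.99 and 0.62 in Het (standard errors 0.14 and 0.20).

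Genes that answer interferon were low in rods throughout. All 20 interferon-stimulated genes tested in Het and 17 of 18 in KO were called lower (36.8% and 36.4% of all genes tested), with medians of -4.43 and -4.24 on the log2 scale beside -0.11 and -0.02 over all genes tested. Like the low members, most of these and of the class II genes passed the filter on low values through retina, so that their direction was largely set by the filter and the counts are no support by themselves. Ifit3, an interferon-induced antiviral protein, had 252, 262 and 479 in Het retina and 4, 6 and 10 in Het rods. Irf1, a transcription factor of class I genes, fell by 4.36 in Het rods (standard error 0.37), whereas Ifngr1, a chain of the interferon gamma receptor, rose by 1.33 (standard error 0.12). Of 24 interferon and class I regulators, 5 were called higher and 6 lower among 20 tested in Het (21.6% and 36.8% of all genes tested). Of 9 other class I and class I-like genes tested in Het, 8 fell (36.8% of all genes tested were lower), and in KO 5 of 8 fell (36.4%) and 1, Hfe, was called higher (0.74, standard error 0.23). Fcgrt and Cd1d1 had log2 fold changes of -4.48 and -3.80 in Het (standard errors 0.39 and 0.31). MHC class II genes were lower in 5 of 5 tested in Het and 3 of 3 in KO, the other 4 and 6 being too low to test, with Cd74 at -4.09 (standard error 0.36).

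Microglia, the resident immune cells of the retina, carry class I genes, and their markers moved with these differences. Of 10 microglia markers tested in Het, 9 were called lower in rods (36.8% of all genes tested were). Most of them passed the filter on low values through retina, so that this count is no support by itself. The summed value of the 14 on the list was 947 to 1229 in Het retina and 292 to 323 in Het rods. In KO the sum was 891 to 1338 in retina and 216 to 220 in rods. The defining markers C1qa and Cx3cr1 were at 0 to 2 and at 0 to 3 in the 6 rod libraries, so the rod sums came mostly from other markers on the list. The 5 T cell and NK cell markers summed to 4 to 12 in retina and 1 to 7 in rods. The part of these cells in the retina values was not tested.

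Within retina, 7 of the 10 genes (H2-K1, H2-T23, Tap1, Tap2, Tapbp, Psmb8 and Psmb9) had the same pair of highest libraries, Het retina 2 and KO retina 3. Microglial C1qa read 34, 88 and 46 in Het against 35, 34 and 95 in KO retina, and Csf1r read 122, 218 and 113 against 148, 82 and 252, again with those libraries highest. Cx3cr1 read 60, 100 and 77 against 61, 66 and 72, with Het retina 2 highest and Het retina 3 next. The summed microglia markers were 1229 in Het retina 2 and 1338 in KO retina 3, with Het retina 3 close at 1206. The pattern was not particular to microglia. Summed Müller glia markers (64158 and 69713) and astrocyte markers (618 and 662) were highest in the same pair. Endothelial, RPE, rod, and T cell and NK cell sums had other pairs highest. Het retina 2 and KO retina 3 also had the steepest trend toward transcripts rich in G and C: the median log2 deviation of GC-rich transcripts exceeded that of GC-poor ones by 0.86 and 0.90, against -0.84 to 0.01 in the other 4 retina libraries. Transcript GC content is 53.5% to 57.3% in the 9 genes of chromosome 17 and 41.2% in B2m, beside a median of 49.5% over genes tested in rods. The part of cell types or of the GC trend in these values was not tested. B2m had its highest retina values in the libraries numbered 3 instead, and H2-D1 and H2-T10 had theirs in KO retina 1 and 2.

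**Figure D3:**
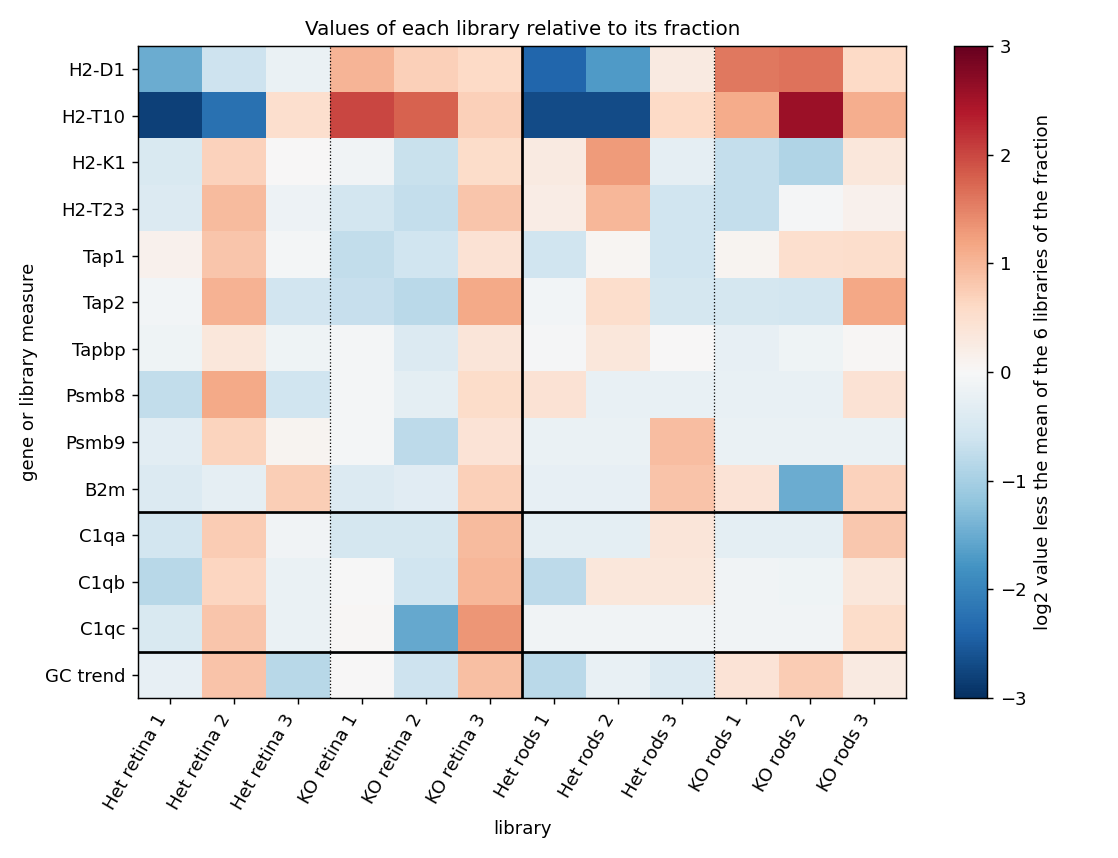
Log2 value of each gene in each library less the mean of the 6 libraries of its fraction (red above, blue below), with 3 microglial genes and, in the bottom row, the difference in median deviation between GC-rich and GC-poor transcripts. H2-D1 and H2-T10 are lower in Het than in KO libraries of both fractions, while in retina 7 genes are highest in Het retina 2 and KO retina 3, where C1qa, C1qb and C1qc are highest as well.

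Across the 12 libraries, after the mean of each fraction was subtracted, H2-D1 and H2-T10 varied together (Pearson r = 0.93, a description over 12 libraries) and H2-K1, H2-T23, Tap2 and Tapbp formed another set, with r from 0.75 to 0.90. H2-D1 and H2-K1 had r = -0.57. Among 15665 genes with a mean value of at least 10, those most like H2-D1 were Kifc5b (r = 0.97), Slc29a1 (r = 0.96) and Rps18-ps5 (r = 0.95). Those most like H2-T10 were the processed pseudogenes Glo1-ps (r = 0.98), Gm18736 (r = 0.97) and Rnps1-ps (r = 0.96). Kifc5b, Slc29a1 and Gm18736 lie on chromosome 17, and Rps18-ps5, Glo1-ps and Rnps1-ps lie on chromosomes 13, 2 and 6 but are named after Rps18, Glo1 and Rnps1, which lie on chromosome 17. H2-K1 was most like Fgd3 (r = 0.92), Tle1 (r = 0.89) and Ccdc106 (r = 0.88), H2-T23 most like Itga7 (r = 0.92), Tapbp and Tspan15 (r = 0.90 each), and B2m most like Fkbp9, Gyg (r = 0.95 each) and Pcdhb22 (r = 0.93). All these correlations come from the same libraries, and the part of depth or base composition in them was not tested.

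Whether loss of Shp2 in rods went with a change of class I genes is the question of the KO against Het comparison. H2-D1 and H2-T10 had every KO value above every Het value in retina and in rods, and the other 8 genes overlapped in both fractions. In retina, 0 of the 10 genes and 0 of 16863 genes in all passed the test in limma (0.0% of all genes tested), and 140 genes had an unadjusted p below 0.05. KO values all lay above Het values in 2 of the 10 genes, as in 1.27% of all genes tested. In rods, 0 of 6 genes tested were called, beside 11.2% of all genes tested called higher and 1.91% called lower. All KO values lay above all Het values in 2 of those 6, and in 19.1% of all genes tested. Since this contrast entered the choice of the genes, nothing is read from these counts.

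H2-D1, by the values given above, was higher in every KO library than in any Het library of the same fraction. The log2 fold change was 1.53 in retina (standard error 0.32) and 2.63 in rods (standard error 0.86). The libraries numbered 3 were nearest to each other in both fractions, with Het 3 the highest Het library and KO 3 the lowest KO library. Without Het rods replicate 3 the change in rods was 3.39, and with each library left out in turn it stayed between 2.05 and 3.39 there, against a span of 1.16 to 1.82 in retina.

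H2-T10 had values of 2, 4 and 39 in Het retina and 118, 98 and 44 in KO retina. Its rod values were 0, 0 and 15 (Het) against 22, 65 and 22 (KO). Again Het 3 was the highest Het library in both fractions, and in retina KO 3 was the lowest KO library. The log2 fold change was 3.04 in retina (standard error 0.85) and 3.10 in rods (standard error 0.93), with ranges of 2.37 to 4.08 and 2.57 to 4.11 when 1 library was left out. With Het rods at 0, 0 and 15 the rod value depends on the pseudocount, and was 4.40 with 0.5 and 1.87 with 8 in place of 2. With the trend with GC content removed, the changes in rods were 2.27 for H2-D1 and 2.94 for H2-T10.

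Values of the remaining genes overlapped between genotypes in both fractions. In retina the log2 fold changes of the other 8 ran from -0.62 (Tap1, standard error 0.43) to 0.13 (Psmb8, standard error 0.55). In rods H2-K1 had -0.76 (standard error 0.42), H2-T23 -0.32 (standard error 0.41), B2m -0.17 (standard error 0.56) and Tapbp -0.14 (standard error 0.12). With the GC trend removed, Tapbp in rods stood at -0.60 (standard error 0.09). Tap1, Tap2, Psmb8 and Psmb9 were too low in rods to be tested. A direct test of whether the KO effect differed between the fractions passed the test in 0 of the 10 genes and 0 of 17192 in all (0.0% of all genes tested), with 601 genes at an unadjusted p below 0.05 in limma.

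**Figure D4:**
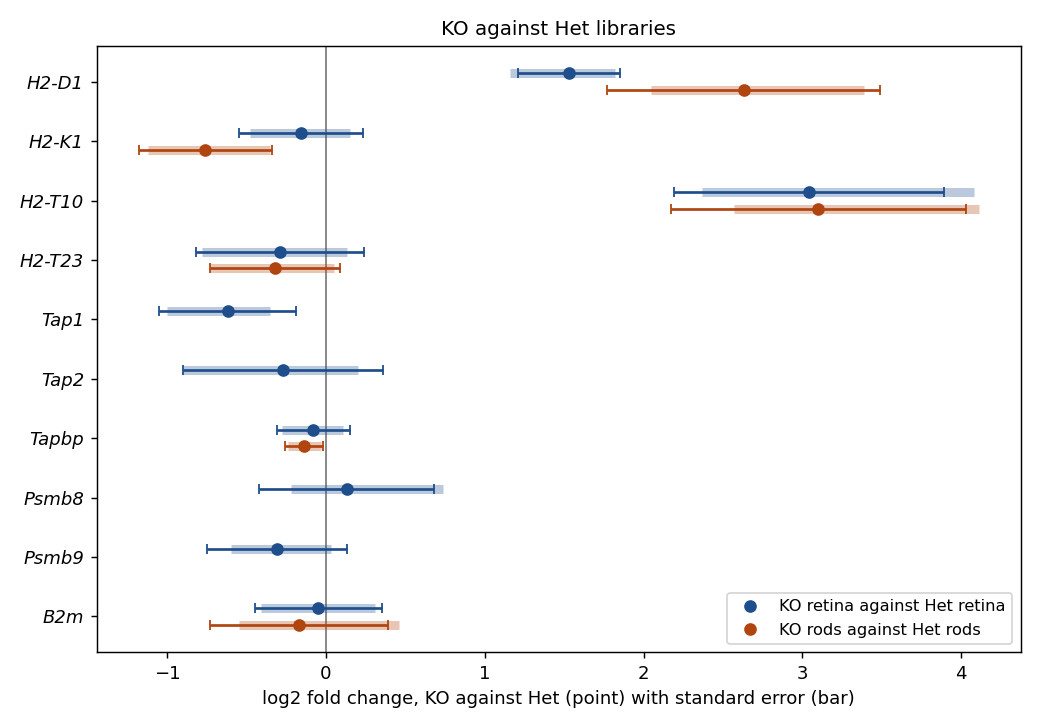
Log2 fold change of KO against Het libraries (point) with its standard error (bar), in retina and in rods; the pale band spans the values with each library left out in turn. H2-D1 and H2-T10 lie between 1.53 and 3.10, while the other genes lie between -0.76 and 0.13.

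Other genes of the region took either direction. H2-T24, a nonclassical heavy chain, read 24, 25 and 25 in Het rods against 5, 4 and 15 in KO rods, all KO values below all Het values, and a log2 fold change of -1.51 (standard error 0.40). The retina libraries held 102, 68 and 38 (Het) against 15, 12 and 40 (KO), so that KO 3 and Het 3 met. H2-T22, a ligand of gamma delta T cells, read 3, 3 and 16 in Het rods against 28, 26 and 26 in KO rods, a log2 difference of 1.97 (standard error 0.47), but 84, 137 and 65 in Het retina and 52, 55 and 86 in KO retina, where it was -0.52 (standard error 0.35). Slc29a1, a nucleoside transporter outside the lists, read 10, 6 and 304 in Het rods against 703, 789 and 312 in KO rods, with Het 3 the highest Het library and KO 3 the lowest KO library, as in H2-D1. Rps18, a ribosomal protein gene among the neighbours, had 2281, 3648 and 1237 in Het retina and 679, 505 and 2805 in KO retina. Its copy Rps18-ps5 had 37, 43 and 71 in Het retina and 258, 160 and 318 in KO retina. Slc29a1 and the copies on other chromosomes were named after their values were seen.

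Of 34 non-immune neighbours in the MHC region, 17 were called higher and 1 lower in KO rods (11.2% and 1.91% of all genes tested), among them Nrm at 1.47 and Wdr46 at 1.05 on the log2 scale (standard errors 0.30 and 0.20). With the GC trend removed 3 were called higher and 2 lower, beside 278 and 104 of 13055 genes tested. Over all genes, calls fell from 1710 to 382 with that trend removed. KO rods had GC trends of 0.28 to 0.76 and Het rods of -0.81 to -0.23. H2-T22 (higher in KO rods) and H2-T24 (lower) passed the limits with and without it. Each passed the filter on low values through the genotype where it was higher, so nothing is read from these calls. Of 8 other proteasome genes, Psmb10 and Psmb5 were called higher in KO rods (11.2% of all genes tested), at 1.22 and 0.89 (standard errors 0.30 and 0.15). With the GC trend removed 0 of the 8 were called. Of 18 interferon and class I regulators tested, 2 were called higher (Rela and Rfxank), beside 11.2% of all genes tested, and 0 with the trend removed. Among 20 interferon-stimulated genes tested in retina 0 were called in limma, with a median of -0.17.

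Class I genes are close copies of each other, and reads could be split among them. Of the 50-base words of the longest transcript, 42.9% in H2-T10 also occur in transcripts of other genes, 40.2% in H2-T22 alone. The share was 28.8% in H2-T23, 14.3% in H2-D1 and 8.79% in H2-K1, whose words are shared mostly with H2-D1 (6.94%). Tap1 and Tap2 shared 0.861% and 0.737% with each other, and Psmb8, Psmb9 and B2m shared 0.0%. These shares do not measure the error of a count. Values of H2-T10, H2-T23 and, with a smaller share, H2-D1 are uncertain for this reason. Reads of H2-T10 and H2-T22 could be exchanged, so their differences between KO and Het rods are not separate observations with certainty. How reads with several matches were counted is not given in the sources used here.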

How the data were processed

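RNA from lysate and from HA-purified rod polysomes was converted with a SMART-Seq kit and sequenced. The submitters' processing notes name CASAVA 1.8.2, HISAT2, DESeq2, edgeR and the build GRCm39, with no role given. The deposited signal values are whole numbers for 56748 genes: the authors scaled the read counts of each library by about 1 factor (0.756 to 1.454 in retina, 0.643 to 1.367 in rods, estimated from the spacing of low values) and rounded them. Groups and replicate numbers come from the sample labels, and 0 columns were left unmapped.

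The design had assumed counts; because the values are scaled, limma 3.58.1 (R 4.3.3, trend and robust) was run on log2 of TMM-scaled values plus 2, for genes with a value of about 10 in at least 3 libraries and a sum of at least 15. Benjamini-Hochberg adjustment covered all genes tested, and genes were called at adjusted p under 0.05 if their log2 fold change exceeded 0.5 in size. The fit was tested on simulated data. Members and lists were chosen with earlier results of these data known. Named genes are the 10 members, at most 4 called genes per other list and comparison, the 3 genes most like each heavy chain and B2m, and Ptpn11, the deletion check; those outside this rule are marked where they appear, apart from the microglial markers.

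Same-numbered Het rod and Het retina libraries deviated together (correlations 0.47, 0.41 and 0.25, and at most 0.01 between different numbers). In KO the correlations were 0.33, -0.01 and 0.18. Whether equal numbers mean the same mouse is not stated, so the main fits used no pairing. A block on the number changed no call of a member in Het. Alternatives covered scaling, pseudocount, filter, GC trend, block and leaving out libraries. Chromosome, GC content and length come from GENCODE vM21 (GRCm38, 91.8% of identifiers matched), whose build differs from that of the authors, and promoters from RefSeq. Python 3.11.15, NumPy 2.4.6, SciPy 1.17.1, Biopython 1.88 and matplotlib 3.10.9 were used.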

Additional observations from a re-analysis of the deposited data

How the results depend on the processing

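With rods against retina, the direction of each member tested held under every alternative run except that of H2-D1 in Het, which was -0.34 without Het rods replicate 3 and up to 0.99 without another library. Members called were 5 in Het and 7 in KO, 3 and 4 with a mean of at least 50, 6 to 7 and 7 to 9 with a library left out and a filter that needed fewer libraries. Genes called in Het fell from 9395 to 6244 with a mean of at least 50 and ranged from 9260 to 10248 without a library. Scaling by library size left 13.6% of calls higher in Het (37% otherwise) and 12.7% in KO (41.5% otherwise), and in KO rods against Het rods 67.3% (85.4% otherwise, 72.8% with the GC trend removed).

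In KO rods against Het rods members called went from 0 to 1 with RLE scaling, with pseudocount 8 and with rod-depleted genes removed (H2-T10), to 1 with the GC trend removed, with or without the block (Tapbp), and to between 0 and 2 without a library, the 2 being H2-D1 and H2-T10 without Het rods replicate 3. Genes called went from 1710 to 382 with the GC trend removed, 457 with the block as well, 0 with all 12 libraries in 1 fit, and 950 to 1976 without a library, 950 being without Het rods replicate 1. In retina they were 0 to 1 without a library, as for the difference between fractions. The cause was not tested.

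With the replicate block alone, members called were 5, 7, 0 and 0 in the 4 comparisons and genes called 9845, 9894, 0 and 1885. With the block and the GC trend removed H2-D1 in Het and H2-T10 in KO passed as well (log2 fold changes 0.59 and -1.0). Same-numbered libraries did not all deviate together in the other comparisons (correlations from -0.59 to 0.40).

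With the mean transcript length in place of the longest, levels per kb in Het retina, KO retina, Het rods and KO rods were 643, 1780, 1230 and 5520 for H2-D1, 228, 207, 60 and 31.5 for H2-K1, and 468, 452, 1030 and 882 for Tapbp. Depth limits Tap1, Psmb8 and Psmb9 in rods, where 0 to 5 reads were estimated per group.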
